A study of Mus musculus with 6 samples.

Results

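The killer lectin-like receptor genes of the mouse form a tight cluster on chromosome 6, known as the natural killer gene complex, and this account follows which of its genes and stretches lay in open chromatin in immature B cells. The members were the 27 protein-coding genes of chromosome 6 whose symbol starts with Klr, together with the other protein-coding genes between the outermost of them, where neighbouring Klr genes were chained if they lay within 1 Mb of each other. That gave 50 of the 21839 protein-coding genes of the mouse, 48 of them in 1 complex of 2.64 Mb from Klrb1a to Klra2 (mm10, chr6:128609227-131247716). The remaining members, Klrg2 (chr6:38616329-38638815) and Klrg1 (chr6:122270596-122282833), lie apart, and taking everything between the outermost Klr genes of the chromosome would have drawn in 796 genes.

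ATAC-seq, which marks accessible DNA by the adapters that Tn5 transposase inserts there, was used to map open chromatin in immature B cells sorted from the spleen as B220+CD93+. All 6 libraries came from Tcrd-GDL mice, a line in which γδ T cells carry a diphtheria toxin receptor and a reporter and can be depleted with the toxin. The untreated group held 3 libraries, and the DTx group held 3 libraries from mice given diphtheria toxin in 2 intraperitoneal injections of 15 ng per g of body weight, 48 h apart, with cells taken on day 8. The labels give no age and no toxin-treated group without the receptor, so loss of γδ T cells and exposure to toxin cannot be told apart. Since they do not state that each library is a separate mouse, the p-values refer to the spread among these libraries, and that spread may be technical.

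The complex encodes C-type lectin-like receptors that natural killer cells and other leukocytes use to read the surface of neighbouring cells. Ly49 receptors (Klra genes) and the CD94/NKG2 heterodimers (Klrd1 with Klrc genes) bind classical and nonclassical MHC class I molecules, NKG2D (Klrk1) binds stress-induced relatives of MHC class I, and the NKR-P1 receptors (Klrb1 genes) bind Clr proteins encoded by the Clec2 genes interspersed among them. Inhibitory members recruit phosphatases through a motif in their tails, whereas activating members pair with adaptors such as DAP12 (Tyrobp) or DAP10 (Hcst). The same stretch holds Cd69, an early activation marker that retains lymphocytes in tissue, and a block of myeloid lectins around Clec7a (Dectin-1). Cd69 and Clec2d are expressed by B cells as well as by other lymphocytes.

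Each deposited list holds the peaks called on 1 library, between 36760 and 60811 after the mitochondrial peaks were left out. The untreated lists held 36760, 42504 and 56503 peaks, and the DTx lists held 44661, 56266 and 60811. Untreated replicate 3 and DTx replicate 1 have the layout of the peak caller's narrow mode and the other 4 lists that of its broad mode, so the comparison of the groups is also given by mode. Read totals are unknown, so depth is unknown and no interval that needs it is given. Of the B cell markers reported for the labelled cell type, Cd79a, Cd79b, Ms4a1, Pax5, Ebf1, Cd93 and Ptprc each carried a peak within 1 kb of a gene end in every library. Of 12 natural killer cell markers 3 did (Prf1, Itga2 and Txk), while Ncr1, Gzma, Gzmb, Cd7 and Fasl had none in any library. The other 4 (Nkg7, Eomes, Tbx21 and Il2rb) had one in some libraries. Of the 8 T cell markers that the gene table lists, 2 did (Cd3d and Cd28), 3 had one in some libraries and 3 in none. Of 10 dendritic and myeloid cell markers 3 did (Zbtb46, Xcr1 and Siglech), 3 had one in some libraries and 4 in none. Among all protein-coding genes, 49.3% had such a peak in every library and 40.8% in none. The part of other cells in any peak described here was not tested.

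Promoter sequences show the range found along the complex. They are the 250 bases upstream of the listed RefSeq start (GRCm38.p6, the build of mm10), 5′ to 3′, with the bases that lay under a peak in all 6 libraries in capitals. Clec2d (chr6:129180365-129180614, plus strand) and Clec2i (chr6:128887337-128887586, plus strand, inside the overlapping gene BC035044) are shown as strongly open Clr promoters. Klra17 (chr6:129876673-129876922, minus strand) is the Ly49 promoter with a peak in every library. Klra1 (chr6:130386875-130387124, minus strand) had a peak in 5 of 6 libraries, and Klrb1c (chr6:128788642-128788891, minus strand) is shown as a promoter with no peak in any library.
Clec2d: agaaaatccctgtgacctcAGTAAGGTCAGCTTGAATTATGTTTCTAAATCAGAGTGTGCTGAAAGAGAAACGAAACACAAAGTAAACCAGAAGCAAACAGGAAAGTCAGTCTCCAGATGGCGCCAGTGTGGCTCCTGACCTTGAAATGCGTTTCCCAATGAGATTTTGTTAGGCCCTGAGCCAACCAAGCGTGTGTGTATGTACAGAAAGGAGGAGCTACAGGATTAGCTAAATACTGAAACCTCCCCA
Clec2i: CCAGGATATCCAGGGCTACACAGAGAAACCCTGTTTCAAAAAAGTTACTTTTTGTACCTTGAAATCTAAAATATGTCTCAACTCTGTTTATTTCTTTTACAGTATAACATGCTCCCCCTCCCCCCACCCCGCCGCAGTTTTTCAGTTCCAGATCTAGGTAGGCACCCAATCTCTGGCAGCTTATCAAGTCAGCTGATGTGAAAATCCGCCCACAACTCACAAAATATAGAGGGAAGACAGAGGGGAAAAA
Klra17: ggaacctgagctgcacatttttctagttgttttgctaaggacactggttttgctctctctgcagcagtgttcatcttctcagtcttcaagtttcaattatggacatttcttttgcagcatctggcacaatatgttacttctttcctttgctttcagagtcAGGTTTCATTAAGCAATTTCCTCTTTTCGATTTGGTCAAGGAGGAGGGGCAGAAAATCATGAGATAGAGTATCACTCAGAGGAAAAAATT
Klra1: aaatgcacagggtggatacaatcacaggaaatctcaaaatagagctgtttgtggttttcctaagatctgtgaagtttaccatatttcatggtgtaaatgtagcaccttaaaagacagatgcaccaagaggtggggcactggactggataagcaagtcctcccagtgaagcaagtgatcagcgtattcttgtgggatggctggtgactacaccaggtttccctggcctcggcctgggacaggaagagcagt
Klrb1c: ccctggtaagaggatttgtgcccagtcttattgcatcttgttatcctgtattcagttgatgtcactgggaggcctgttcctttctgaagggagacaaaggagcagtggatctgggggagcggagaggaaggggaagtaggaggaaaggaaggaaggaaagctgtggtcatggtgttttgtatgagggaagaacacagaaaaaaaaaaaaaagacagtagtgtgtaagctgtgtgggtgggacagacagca
In Clec2d 231 of the 250 bases lay under a peak in every library, and in Clec2i all 250 did. In Klra17 90 bases next to the start did, although all 250 were covered in at least 1 library. No base of the Klra1 stretch was covered in all 6, and no base of the Klrb1c stretch was covered in any.

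Gene ends were open in a minority of the members. A gene end is called open here when a peak lies within 1 kb of either end of the gene. Because the gene table has no strand, a gene end stands in for a promoter but can be the downstream end. It was open in all 6 libraries for 12 of 50 members, or 24.0%, where 49.3% of all protein-coding genes met the same rule. It was open in no library for 29 members, where 40.8% of all genes had none, and in 1 to 5 libraries for 9 members, where the share of all genes was 9.88%. Among the 27 Klr genes themselves, 3 (11.1%) were open at an end in every library, and these were Klre1, Klri2 and Klra17. When every list was cut to its 36760 strongest peaks, Klre1 kept its peak in all 6 libraries, Klri2 in 2 of each group and Klra17 in 1 of each group, so that 1 of the 27 then met the rule.

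A wider window gave another picture. In all 6 libraries 33 members had a peak inside the gene or at most 10 kb away, or 66.0%, beside 66.1% of all genes. In no library did 8 members have one, beside 24.1% of all genes. All 5 NKR-P1 genes, all 8 Clr genes with Cd69 and all 7 genes of the Dectin-1 group were among the 33. In contrast, 4 of 9 genes of the NKG2 and CD94 group, 5 of 11 Ly49 genes and 3 of 8 genes with no lectin name were. The 8 genes with no such peak in any library were Klrc3, Klrc2, Klrh1, Klra2, Gm6590, Gm38706, LOC115490339 and Gm44150, all at higher coordinates than Klrk1.

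**Figure D1:**
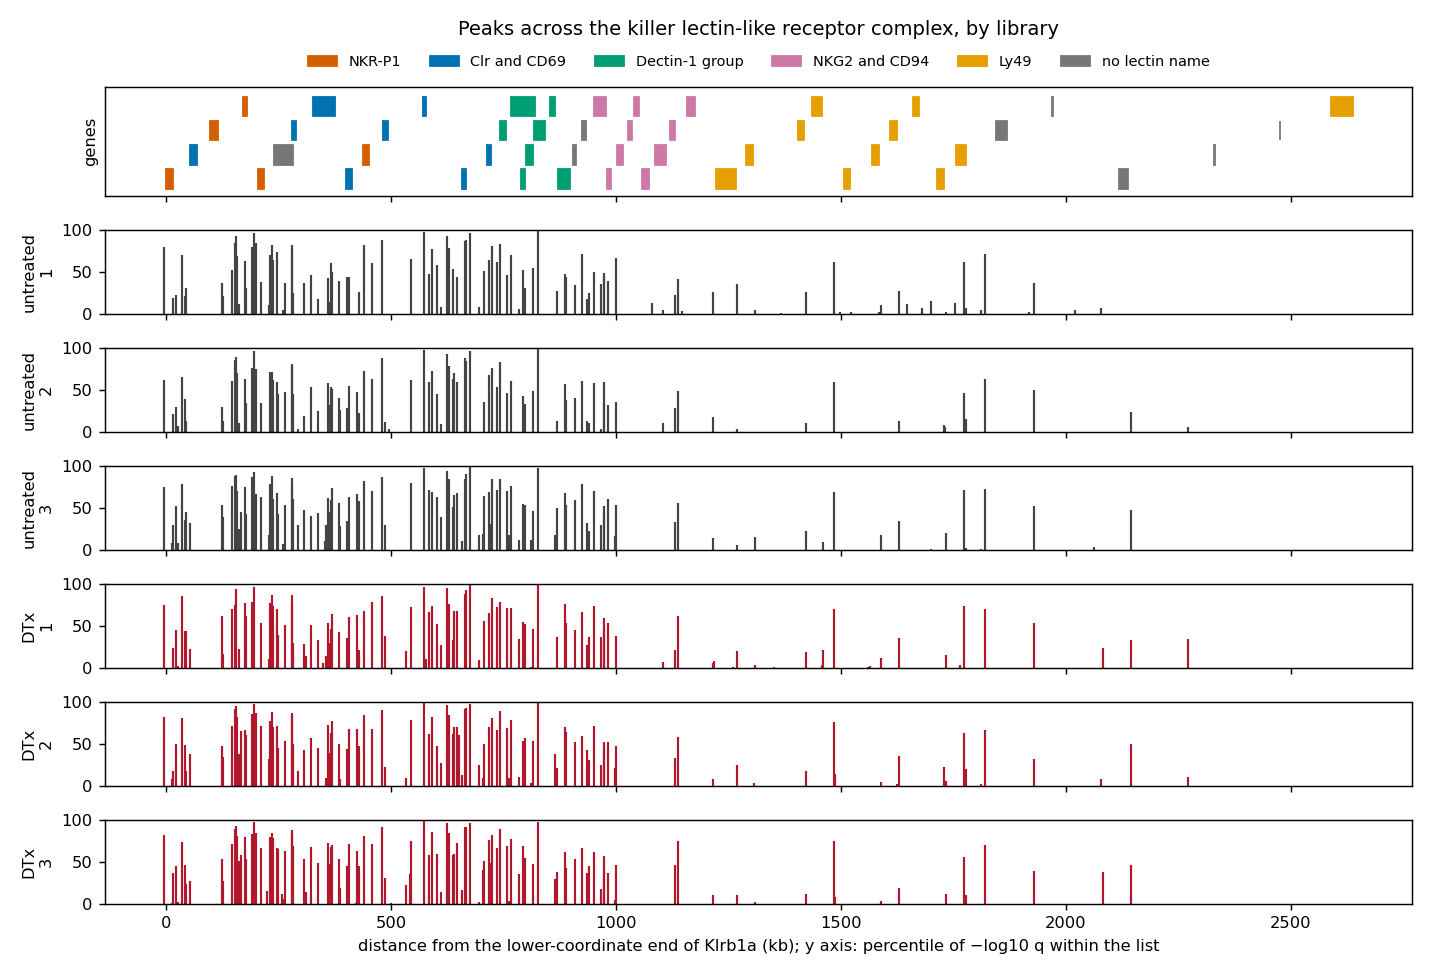
Peaks across the complex in each of the 6 libraries, plotted by distance from the lower-coordinate end of Klrb1a in kb (x axis) and by the percentile of the peak's −log10 q within its own list (y axis, 0 to 100), with genes coloured by family in the top row. Tall lines crowd the NKR-P1, Clr and Dectin-1 genes in every library, and few lines, mostly short, stand over the Ly49 genes.

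Peak strength is given as the percentile of the −log10 q of a peak among all peaks of its own list, high values being strong peaks. The q-values and fold enrichments were computed by the authors for each peak, and they describe or rank peaks within a list.

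Clec2d had the strongest gene end of the complex. It encodes Clr-b, the ligand through which cells engage the inhibitory receptor NKR-P1B. The peak at its end (chr6:129180379-129181202) lay at percentiles 98.5, 98.0 and 97.9 in the untreated libraries and 97.1, 98.6 and 99.1 in the DTx libraries. Its fold enrichment over background ranged from 8.21 to 17.6 by library. The strongest gene-end peak of the complex in each of the 6 libraries was thus close to the top of its list, and the groups overlapped.

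Clec2i, which encodes the Clr-g ligand, had its gene-end peak at percentiles 82.6, 81.2 and 86.2 in untreated and 87.0, 85.3 and 83.5 in DTx libraries. The ranges of the groups overlapped. The overlapping gene BC035044 had a weaker peak at its higher-coordinate end (chr6:128890866-128891319), with a wide range from 24.6 to 68.95.

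The remaining Clr genes were not open at an end in every library. Clec2h, which encodes Clr-f, had a gene-end peak in 1 of 3 untreated and 3 of 3 DTx libraries, at percentiles from 22.7 to 38.0. Without a peak at the end, the nearest one in the other untreated libraries lay 8.79 kb away. Clec2m was open at an end in 1 library of each group (30.4 in untreated replicate 3 and 49.3 in DTx replicate 3). Clec2e, Clec2f and Clec2g were open at an end in no library but had peaks inside the gene or up to 10 kb away in all 6, the strongest lying between percentiles 85.8 and 91.7 for Clec2e, 44.3 and 71.3 for Clec2f, and 58.5 and 77.5 for Clec2g.

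No NKR-P1 gene was open at an end in all 6 libraries, although each had peaks within 10 kb in every library. Klrb1a had a gene-end peak in untreated replicates 1 and 2, at percentiles 19.6 and 22.0, and in no other library. The peak edge nearest to the end of Klrb1a lay at 0.861 and 0.922 kb in those 2 libraries and at 1.52, 1.45, 1.62 and 1.52 kb in the other 4, so that the call turned on where the edge of 1 peak fell relative to the 1 kb limit. With the limit at 2 kb or at 500 bp the difference in libraries was 0. At Klrb1c, which encodes the NK1.1 antigen, the nearest peak lay 1.99 to 2.00 kb from the gene end in all 6 libraries. That is well outside the 1 kb limit and just inside the alternative of 2 kb.

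The other NKR-P1 genes had peaks inside or beside the gene but away from its ends. The strongest peak in or within 10 kb of Klrb1b, which encodes the receptor for Clr-b, lay between percentiles 54.1 and 87.3. For Klrb1f, a receptor of Clr-g, the range was 73.1 to 84.3, and for Klrb1 it was 29.3 to 61.8. Regions inside Klrb1f (chr6:129048989-129049486, percentiles 67.5 to 84.3) and inside Klrb1b (chr6:128818016-128818994, 34.0 to 71.7) were called in all 6 libraries, as was the region 7.47 kb from Klrb1 that gave its values. None of these 3 genes had a peak at an end or over its RefSeq promoter window in any library.

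Cd69 was open at its end and at several places around it. Its gene-end peak (chr6:129275029-129276041) lay at percentiles 89.1, 84.9 and 90.6 in untreated and 93.6, 93.5 and 91.9 in DTx libraries. The 3 DTx values were above the 3 untreated values, and the region was called in all 6 libraries. Ranks were taken within lists of different lengths, and whether the site differed between the groups was not tested. A second region inside the gene (chr6:129273572-129274090) ranged from 84.4 to 92.5.

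Strong regions also lay on both sides of Cd69. The region 8.01 kb above the gene (chr6:129283382-129285238) was at percentiles 97.3, 96.4 and 98.7 in untreated and 99.4, 97.5 and 96.6 in DTx libraries, with overlapping groups. Below the gene, towards Clec2d, regions at 34.0 kb (chr6:129232408-129233356) and 28.7 kb (chr6:129236967-129238585) ranged from 92.9 to 97.0 and from 76.6 to 85.3. Within 50 kb of Cd69 there were 15 regions, 9 of them present in every library, where 44.1% of the regions of the genome were. The 80.8 kb between Clec2d and Cd69 held 11 regions, 8 of them in every library, and the 79.7 kb on the other side of Clec2d, up to Clec2e, held 5, of which 1 was.

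**Figure D2:**
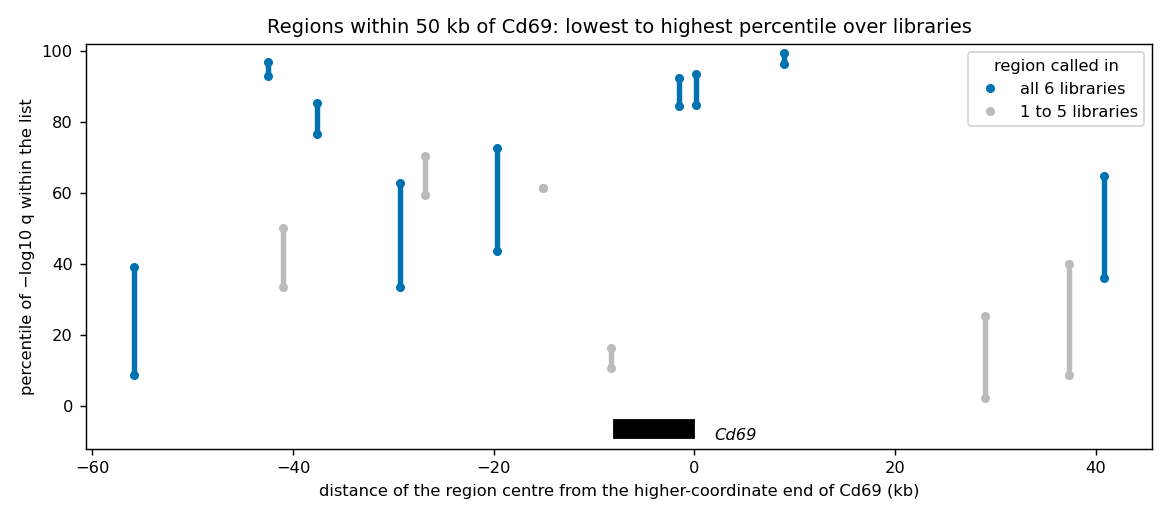
Regions within 50 kb of Cd69, plotted by the distance of their centre from the higher-coordinate end of the gene in kb (x axis) and by the lowest to highest percentile of −log10 q over the libraries that called them (y axis). Blue bars are the 9 regions called in all 6 libraries and grey marks are those called in 1 to 5; 5 of the blue bars, at the gene end, inside the gene, above it and 2 towards Clec2d, stay at or above percentile 76.6.

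In the Dectin-1 group, Clec12a, an inhibitory receptor of myeloid cells, had the strongest gene end. The peak (chr6:129349482-129350487) lay at percentiles 83.3, 83.1 and 84.9 in untreated and 78.7, 89.2 and 90.0 in DTx libraries, with overlapping groups. Clec12b ranged from 61.4 to 79.3 over the 6 libraries. Clec9a, a dendritic cell receptor for material of dead cells, ranged from 46.0 to 54.7, with the nearest peak edge 0.644 to 0.764 kb from the gene end, just inside the limit.

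The strongest region of the complex by its lowest percentile lay inside Clec1a rather than at a gene end. The region (chr6:129434102-129434761) was at percentiles 99.1, 99.1 and 98.0 in untreated and 99.3, 98.9 and 98.4 in DTx libraries, with fold enrichments from 10.2 to 25.2. The 2 narrow-mode lists gave the highest folds, 25.2 and 23.5, and the 4 broad-mode lists gave 10.2 to 12.8. The gene model of Clec12b spans Clec1b and Clec9a and overlaps Clec1a, so a peak there belongs to several members at once, and the region in Clec1a also counts within 10 kb of Clec12b and Clec9a.

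Clec7a, the beta-glucan receptor Dectin-1, was open at an end in 1 untreated and 2 DTx libraries, at percentiles from 18.0 to 38.0. Clec1b (CLEC-2, known from platelets) and Olr1 (LOX-1, a receptor for oxidised lipoprotein) had no peak at an end in any of the lists. Their nearest peak lay 1.62 to 1.72 kb from an end of Clec1b and 1.97 to 2.05 kb from an end of Olr1. The 2 genes without a lectin name next to this group were open at an end in every library, Gabarapl1, an autophagy gene, at percentiles 59.4 to 78.3 and Tmem52b at 34.5 to 59.7.

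In the NKG2 and CD94 group the open gene ends belonged to Klre1 and Klri2. Klre1 encodes a chain that pairs with the products of Klri1 or Klri2. Its peak lay at percentiles 49.6, 58.9 and 70.2 in untreated and 73.8, 72.1 and 62.3 in DTx libraries. Klri2 was lower, at 22.6, 28.2 and 33.6 in untreated and 21.9, 32.8 and 46.7 in DTx libraries. Both genes were called in every library, and the ranges of the groups overlapped for each.

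The chains best known from natural killer cells had no open gene end. Klrd1 (CD94) and Klrk1 (NKG2D) had peaks in the gene or within 10 kb in all 6 libraries but none at an end, and the edge nearest to Klrk1 lay at 1.31 to 1.53 kb. Klrc1 (NKG2A) had 1 such peak in 1 untreated library, and Klri1 had peaks within 10 kb in 2 untreated and 1 DTx libraries. Klrc2, Klrc3 and Klrh1 had none in any library. The RefSeq promoter windows of Klrc2 and Klrc3 are 98.8% identical, so reads from either cannot be assigned with certainty and the absence of a peak there is uncertain.

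Over the Ly49 genes peaks were few and weak. Klra17, which encodes Ly49Q, a receptor known from plasmacytoid dendritic cells, was the Ly49 gene open at an end in every library, at percentiles 36.0, 3.53 and 6.14 in untreated and 19.7, 24.5 and 10.04 in DTx libraries. Untreated replicate 1 was highest, and the groups overlapped. Klra1 (Ly49A) was open at an end in 3 untreated and 2 DTx libraries, at percentiles from 2.20 to 20.1.

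The other Ly49 calls at gene ends came from single libraries of a group. Klra3 (Ly49C) had one in 1 library of each group (8.38 and 22.3), Klra8 (Ly49H, which binds a cytomegalovirus protein) in untreated replicate 1 (1.87), Klra4 in DTx replicate 1 (2.94) and Klra7 in DTx replicate 2 (2.15). The last 3 values place these peaks among the weakest of their lists. Klra5, Klra6, Klra9, Klra10 and Klra2 were open at an end in none of the libraries. Of these, Klra6 had a peak within 10 kb in 6 libraries, Klra5 and Klra9 in 5, Klra10 in 1 and Klra2 in none. The RefSeq promoter window of Klra9 had a peak in 1 untreated and 1 DTx library, although none lay within 1 kb of an end of its gene model. In the distal stretch beyond the array, Gm6600, a gene with no lectin name, had a peak within 10 kb in 5 libraries, at percentiles from 24.0 to 50.01.

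The strongest peaks of the Ly49 array lay away from gene ends, at middle to upper percentiles of their lists. A region inside Klra1 (chr6:130382025-130382930) was at percentiles 62.3, 46.2 and 72.1 in untreated and 73.8, 63.3 and 55.9 in DTx libraries. Another, 22.1 kb from Klra8 (chr6:130092267-130093127), was at 62.6, 59.5 and 69.3 in untreated and 70.3, 76.7 and 74.8 in DTx libraries. Both regions were called in all 6 libraries. The array held 35 regions, of which 6 (17.1%) were called in every library, where 44.1% of the regions of the genome were.

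Many Ly49 promoters closely resemble another one, and so do several pairs elsewhere in the complex. Aligned over at least 200 bases, each of the 11 Ly49 promoters was a median of 86.6% identical to its closest relative, against 60.9% in the Dectin-1 group. The Ly49 values ranged from 61.0%, for Klra1, to 96.4%, and 4 of the 11 were at least 90% identical to another. The closest Ly49 pair was Klra9 and Klra3, at 96.4%. Elsewhere, Clec2h and Clec2e were 93.3% identical, and Klrb1a and Klrb1c were 90.8% identical. How reads that fit several copies were placed is not given in the sources used here. Calls at the Ly49 genes with a near-identical copy, and at Clec2h, Clec2e, Klrb1a and Klrb1c, are therefore uncertain. The part of such reads in the low number of Ly49 peaks was not tested.

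**Figure D3:**
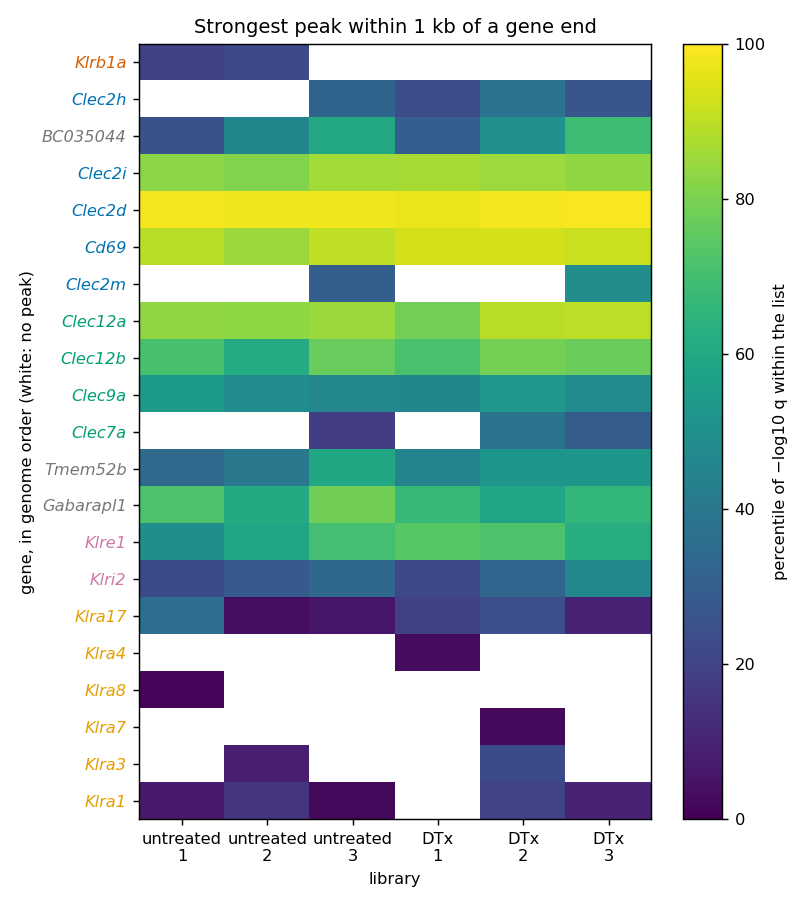
Percentile of −log10 q within the list (colour, 0 to 100) of the strongest peak within 1 kb of a gene end, for the 21 genes with such a peak in at least 1 library (rows, in genome order) and the 6 libraries (columns). White cells have no peak; Clec2d, Cd69, Clec2i and Clec12a are the brightest rows, and the Ly49 rows at the bottom are dark or white.

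Counted per length, the complex fell into densely and sparsely open stretches, which were drawn after the peaks had been seen and so carry no test. The stretch of the NKR-P1 and Clr genes held 9.93 ± 1.25 peaks per 100 kb (SD, n = 6 libraries), and that of the Dectin-1 group with Tmem52b and Gabarapl1 held 8.81 ± 1.16. The NKG2 and CD94 stretch held 3.70 ± 0.477, the Ly49 array 2.56 ± 0.706, and the distal stretch from Gm6590 to Klra2 0.617 ± 0.140. The genome as a whole held 1.82 ± 0.351 per 100 kb. The first 3 stretches were above the genome's density in 6 of 6 libraries, and the distal stretch was below it in 6 of 6.

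The Ly49 array was 7.38 ± 1.596 peaks per 100 kb below the NKR-P1 and Clr stretch (SD over 6 libraries), and was lower in each library. Its position relative to the genome depended on weak peaks. The array was above the genome's density in 5 of 6 libraries with all deposited peaks. When every list was cut to its 36760 strongest peaks, it was above in 1 of 6. That was untreated replicate 1, whose list already had this length. With peaks of −log10 q of at least 5, the array was above in 0 of 6. The median percentile of all deposited peaks of the array ranged from 6.13 to 15.9 by library, against 53.6 to 62.3 for the NKR-P1 and Clr stretch.

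The count in the array also varied between libraries without following list length. It held 21, 10 and 18 peaks in the untreated libraries and 19, 14 and 12 in the DTx libraries. Untreated replicate 1, the shortest list, gave the most. With lists of equal length the counts were 21, 4 and 2 in untreated and 6, 3 and 2 in DTx libraries. The list of untreated replicate 1 sets that length and so was not cut. With peaks of −log10 q of at least 5 the counts were 3, 2 and 11 in untreated and 9, 3 and 2 in DTx libraries. The 2 narrow-mode lists then gave the most. The complex had 38 regions called in 1 library alone (22.5%, beside 18.2% in the genome), and untreated replicate 1 accounted for 34.2% of them, where it accounted for 6.71% of such regions in the whole genome. For DTx replicate 1 the shares were 23.7% and 7.67%. Without untreated replicate 1 the difference between the Ly49 array and the NKR-P1 and Clr stretch was -7.89 peaks per 100 kb.

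**Figure D4:**
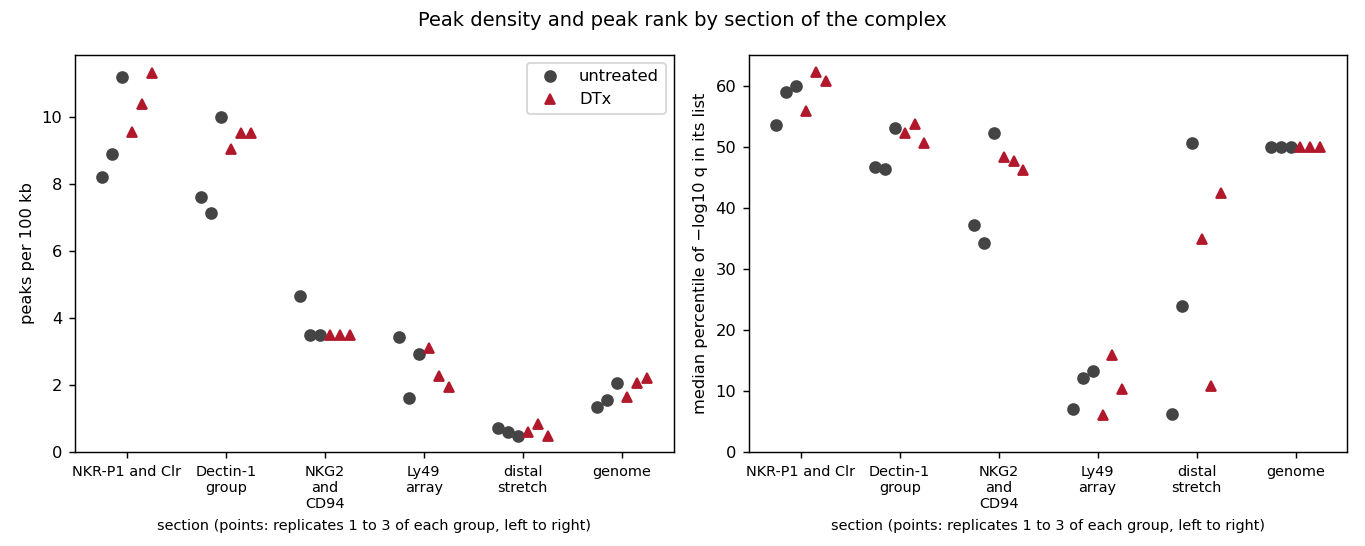
Peaks per 100 kb (left) and median percentile of −log10 q (right) in 5 stretches of the complex and in the whole genome, with 1 point per library (circles untreated, triangles DTx). The NKR-P1 and Clr stretch and the Dectin-1 group stand at 7.14 to 11.3 peaks per 100 kb in every library, and the Ly49 array at 1.63 to 3.43 with a median percentile of at most 15.9.

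Regions between genes outnumbered those at gene ends and those inside genes. Merging the 6 lists gave 169 regions in the complex and 10 kb on either side, of which 86 (50.9%) were called in all 6 libraries, where 44.1% of the 70174 regions of the genome were. Of the 86, 14 lay at a gene end (16.3%), 26 inside genes and 46 between genes. Over the whole genome 32.6% of regions called in all libraries lay at a gene end. The genome's shares inside and between genes were not counted, so the 46 between genes have no such comparison.

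Among the 12 regions of the complex that were strongest by their lowest percentile, 4 lay at a gene end (Clec2d, Cd69, Clec2i and Clec12a), 2 inside a gene (Clec1a and Cd69) and 6 between genes. Besides the 3 flanking Cd69, the regions between genes were near the NKR-P1 and Clr genes. One lay 10.3 kb from Klrb1b (chr6:128802846-128803432), at percentiles 97.3, 97.1 and 93.8 in untreated and 97.2, 98.1 and 98.1 in DTx libraries. Another lay 13.9 kb from Klrb1c (chr6:128763929-128764601), at 89.3 to 95.1 over the libraries, and the last 2.74 kb from Clec2e (chr6:129088395-129089073), at 85.8 to 91.7. Only regions called in 6 of 6 libraries were ranked, so the presence of these 12 in each library was set by the rule.

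A narrower reading of promoters came from the RefSeq windows of 300 bases, which were listed for 44 of the 50 members. Of these, 6 had a peak over a promoter window in all 6 libraries (BC035044, Clec2i, Clec2d, Clec12a, Gabarapl1 and Klra17) and 29 had none in any library. Over all genes with a window, 48.4% had one in every library and 43.8% had none. Clec12b, Clec9a, Tmem52b and Klre1 had a peak near an end in every library that did not reach the listed promoter window. By the strand of these windows, the peaks of Clec12b, Clec9a and Tmem52b lay at the downstream end of the gene model, away from the promoter. The peak of Klre1 lay at the upstream end of its gene model, before the listed start.

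Member promoters were poor in G and C. Their 51 windows had a median GC content of 40.0% and a median of 2 CpG dinucleotides, against 52.7% and 7 over all 32851 windows. Within the members, the 7 windows open in all libraries had a median GC content of 44.3% and 4 CpG, and the 34 windows open in none had 39.2% and 2. Given the low numbers, these are descriptions.

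Short motifs were searched on both strands of the same windows. The AP-1 motif TGANTCA was in 12 of 51 member windows (23.5%), against 7.81% of all windows, with Clec12a the single member that held it and had a peak there in every library. The ETS motif AGGAAGT was in 6 member windows (11.8% against 9.35%), the E-box CAGGTG in 7 (13.7% against 20.2%) and the RUNX motif TGTGGTT in 3 (5.88% against 5.27%). The EBF1, octamer ATGCAAAT and EGR motifs had no match in a member window, where the shares of all windows were 0.904%, 1.74% and 0.612%. Copied promoters share their sequence, so windows of 1 family are not independent.

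The genes that receptors of the complex work with lie elsewhere in the genome. Of 16 adaptor and signalling genes, 11 (68.8%) were open at an end in every library, beside 49.3% of all genes. Tyrobp, the adaptor DAP12 of activating Ly49 receptors, lay at percentiles 71.8 to 90.0 and Hcst, the adaptor DAP10 of NKG2D, at 14.8 to 55.5. Ptpn6, the phosphatase SHP-1 recruited by inhibitory receptors, lay at 82.6 to 90.7. Zap70, Sh2d1b1 and Lat2 were closed at both ends in every library, and Fcer1g had a peak in 1 library.

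Among 11 ligands and partners of the receptors, 7 (63.6%) were open at an end in every library, beside 49.3% of all genes. H2-K1 and H2-D1, the classical MHC class I genes whose products Ly49 receptors bind, lay at percentiles 96.4 to 98.8 and 94.4 to 99.2. H2-T23, which encodes Qa-1, the ligand of CD94/NKG2A, lay at 64.9 to 87.0. The NKG2D ligand genes Ulbp1 and H60b lay at 43.6 to 72.2 and 22.7 to 52.8, and Raet1e at 2.20 to 26.7, whereas H60c had no peak and Raet1d had one in 1 library of each group. S1pr1, whose product Cd69 binds and removes from the surface, lay at 43.7 to 79.3. Cdh1 and Cdh2, cadherins bound by Klrg1, had none. Klrg1 itself had no peak at an end in the 6 lists and a peak within 10 kb in 4, and Klrg2 had peaks within 10 kb in all 6 at percentiles 6.92 to 36.6. The RefSeq promoter window of Klrg2 had a peak in 1 untreated and 2 DTx libraries.

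The design asks whether these sites differed between immature B cells of untreated and DTx mice, and 4 values per library were tested by exact permutation (two-sided), where 3 against 3 libraries allow no p below 0.1. Members with a gene-end peak numbered 15, 15 and 16 in the untreated and 14, 17 and 16 in the DTx libraries. The means were 15.3 ± 0.577 and 15.7 ± 1.53 (SD, n = 3; exact permutation p = 1). Among lists of broad mode the DTx libraries were 1.5 genes higher, and in the narrow-mode lists the DTx library was lower by 2 genes (16 against 14).

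Members with a peak in the gene or within 10 kb numbered 40, 35 and 38 in untreated and 38, 37 and 37 in DTx libraries. The means were 37.7 ± 2.52 and 37.3 ± 0.577 (SD, n = 3; exact permutation p = 1), with a difference of -0.50 in broad mode and 0 in narrow mode. The groups overlapped, and no difference beyond the spread between libraries was detectable.

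Peaks in the complex numbered 116, 105 and 135 in untreated and 123, 127 and 129 in DTx libraries. The means were 119 ± 15.2 and 126 ± 3.06 (SD, n = 3; exact permutation p = 0.5), with the DTx libraries 17.5 higher in broad mode, and 135 against 123 in narrow mode. As a share of all peaks of a library, the complex held 0.316%, 0.247% and 0.239% in untreated and 0.275%, 0.226% and 0.212% in DTx libraries. The means were 0.267% ± 0.0421 and 0.238% ± 0.0333 (SD, n = 3; exact permutation p = 0.5). The share was lower by 0.0624 percentage points in DTx than in untreated broad-mode libraries, and was 0.239% against 0.275% in narrow mode. After Benjamini-Hochberg adjustment over the 4 comparisons each p was 1.

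**Figure D5:**
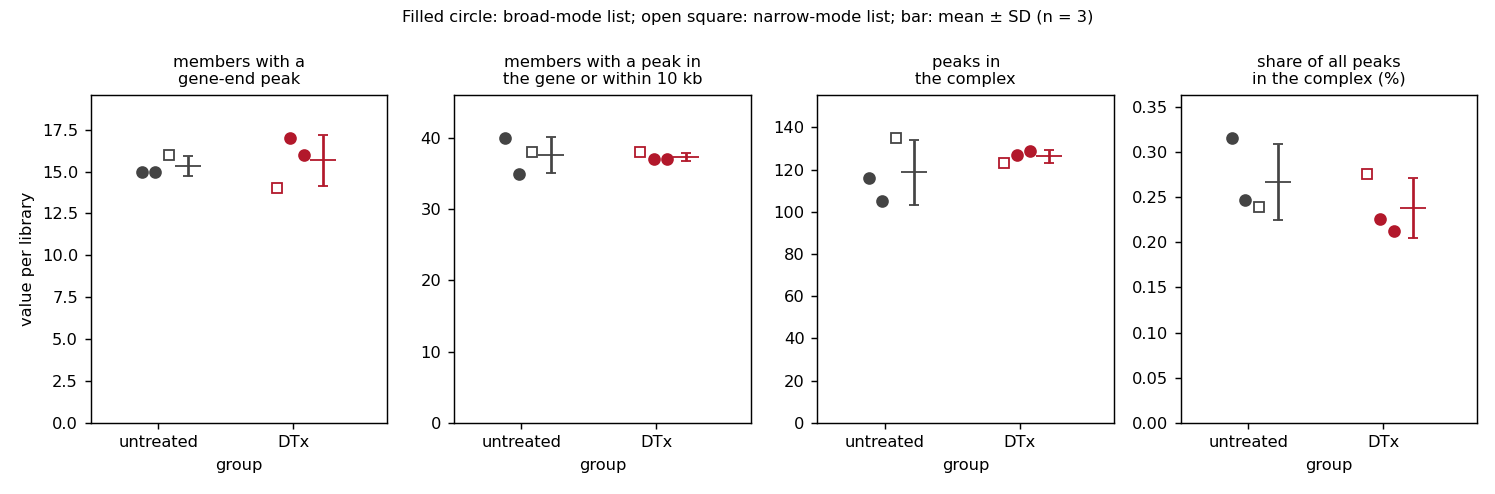
The 4 compared values by library and group, from left to right the members with a gene-end peak, the members with a peak in the gene or within 10 kb, the peaks in the complex and its share of all peaks in percent, with mean ± SD (n = 3). Filled circles are broad-mode and open squares narrow-mode lists; the groups overlap in each panel.

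Gene by gene, the number of libraries with a gene-end peak was the same in both groups for 43 of 50 members. These include the 29 members with no such peak in any library and the 12 with one in all 6. The end was open in more DTx libraries for 4 (Clec2h, Clec7a, Klra4 and Klra7), where 5.03% of all genes were, and in more untreated libraries for 3 (Klrb1a, Klra8 and Klra1), where 2.36% of all genes were. No member was open at an end in all libraries of a group while closed in all of the other, in either direction. The shares of all genes were 0.0366% for DTx and 0.00458% for untreated.

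Of the 169 regions, 1 was called in all 3 DTx libraries and no untreated library, where 0.705% of the regions of the genome were, and none showed the reverse, where 0.0242% were. The region (chr6:129142536-129143051) lies between Clec2e and Clec2d, 37.6 kb from Clec2d. It was at percentiles 20.5, 9.12 and 22.8 in the DTx libraries. With lists of equal length it stayed in 1 DTx library and did not count, and a region 9.51 kb from Klrb1 (chr6:128733844-128734873) was then found in 3 of 3 untreated and 0 of 3 DTx libraries. With equal length, 0.255% of the regions of the genome were called in DTx alone and 0.402% in untreated alone. That second region was called in all 6 deposited lists, at percentiles from 13.5 to 39.3.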

How the data were processed

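ATAC-seq peak lists of 6 libraries were used, 3 untreated and 3 DTx, grouped by the treatment label. Reads were processed with Trim Galore 0.4.3, Bowtie2 2.3.2 and MACS2 2.1.1 on mm10, per the submitters' processing notes. The sources used here do not give the Tn5 shift, the treatment of duplicates and of multiply mapped reads, or read totals. Per the file headers, each list gives a peak's position, its pileup (read coverage signal) and its fold enrichment as a ratio. The authors also deposited the −log10 of its p-value and of its q-value under damaged headers, identified here by order and values. Each library's peaks were called separately.

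Mitochondrial peaks were left out. A peak was counted for a gene by overlap of at least 1 bp with a window of 1 kb around either gene end, or with the gene and 10 kb on either side. Overlapping peaks of the 6 lists were merged into regions. Genes and promoter windows (250 bases before and 50 after a start) came from RefSeq tables of GRCm38.p6, without 44 genes on alternate scaffolds, of which 2 are Klr genes. The table gives no exons, so exon, intron and UTR were not told apart. Promoters were aligned globally with Biopython 1.88. Python 3.11.15, NumPy 2.4.6, pandas 2.3.3 and SciPy 1.17.1 were used, and the counting was tested on simulated peaks.

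Named genes are all members with a gene-end peak in any library and other members with a peak within 10 kb in at least 3 libraries. Of the regions called in all 6 libraries, the 12 with the highest lowest percentile are named. Regions called in all libraries of 1 group only are named as well. Further members are named where a family count is given. A further B cell marker of the list is not reported here. The members, lists and rules were chosen with earlier results of these data known. Alternatives were lists of equal length, −log10 q of at least 5, other windows (500 bp, 2 kb and 5 kb), each caller mode, the literal span of Klr genes, each library left out and a replicate block.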

Additional observations from a re-analysis of the deposited data

How the results depend on the processing

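With at most 3 libraries a group, no alternative run of the 4 comparisons could give an exact permutation p below 0.1, so none could pass 0.05. The small differences of the 4 comparisons (DTx minus untreated) changed sign between runs. For members with a gene-end peak the difference of 0.333 became -0.333 with lists of equal length, -2 in narrow mode and 0 with a 2 kb window, and ranged from -0.333 to 1.17 when each library was left out. For members with a peak within 10 kb the difference of -0.333 became 2 at −log10 q of at least 5, 0.333 with a 5 kb window, 22.3 genes over the literal span and 0 in narrow mode, and ranged from -1.67 to 0.833 with each library left out. For peaks in the complex 7.67 became -5.67 with lists of equal length and -12 in narrow mode (leaving out libraries, 0.833 to 15.8). The share of peaks, -0.0294 percentage points, became 0.0365 in narrow mode. The causes were not tested.

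The 12 members open at an end in all libraries numbered 8 to 18 under the other settings, and 346 genes over the literal span. Regions called in DTx libraries alone numbered 0 with lists of equal length and at −log10 q of at least 5, 11 in broad mode and 16 in narrow mode, and 1 to 3 with each library left out. Regions called in untreated libraries alone numbered 1 with lists of equal length, 2 in broad mode and 21 in narrow mode, and 0 to 1 with each library left out. By mode and with a library left out, fewer libraries have to meet the rule. Settings for 2 further values were chosen after seeing the data. The Ly49 array minus the NKR-P1 and Clr stretch ranged from -7.89 to -6.98 peaks per 100 kb, and the members open at a promoter window in all libraries numbered 5 with lists of equal length and 4 at −log10 q of at least 5.

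Over regions, pairs of libraries with equal number gave r = 0.204, -0.0217 and 0.147, and pairs of unlike number gave -0.238 to 0.103. Untreated replicate 2 and DTx replicate 2 did not deviate together, so the numbers were not taken to pair the libraries. With a replicate block the differences were 0.333, -0.333, 7.67 and -0.0294, with exact sign-flip permutation p of 1, 1, 0.5 and 0.25, where 0.25 is the smallest possible. Unknown depth and 3 libraries a group limit what could be detected.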
